A study of Arabidopsis thaliana with 24 samples.

Results

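The 10 genes described here encode enzymes of the Calvin cycle (also called the Calvin-Benson cycle) of Arabidopsis thaliana, together with Rubisco activase. They were taken from the count table by their gene identifiers, 10 of 33602 genes, and all 10 had enough counts to be among the 10097 genes tested. RNA was sequenced from whole seedlings of IP-Svi-0, a natural accession, and of Col-0, the accession of the reference genome. The labels name no transgene or mutation in either accession. Each accession was grown on MS medium at 10, 16, 23 and 27 °C, which gave 8 groups of 3 libraries, 24 in all. Plants at 10 °C were harvested after 23 days, those at 16 °C after 12, those at 23 °C after 8 and those at 27 °C after 7, so temperature and age cannot be told apart. The series was designed to find genes that differ in IP-Svi-0 and that bear on its early flowering. Nothing in the labels says that the 3 libraries of a group came from separate cultures, so p-values measure the spread between these libraries, which may be technical.

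The Calvin cycle fixes CO2 in the chloroplast stroma. Rubisco joins CO2 to ribulose bisphosphate, the reduction steps turn the product into triose phosphate with ATP and NADPH from the light reactions, and the regeneration steps rebuild ribulose bisphosphate from most of the triose phosphate. Apart from the large subunit of Rubisco, the enzymes are encoded in the nucleus and imported into the chloroplast, and several of them are switched on in the light by thioredoxin. Cold growth of Arabidopsis is known for adjusting the capacity of carbon fixation. In whole seedlings, fewer green cells and less RNA per green cell cannot be told apart.

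The members follow the cycle. RCA (AT2G39730) encodes Rubisco activase, which removes sugar phosphates from Rubisco. The reduction steps are represented by PGK1 (AT3G12780), a phosphoglycerate kinase, and by the glyceraldehyde 3-phosphate dehydrogenase subunits GAPA (AT3G26650), GAPA2 (AT1G12900) and GAPB (AT1G42970). GAPA and GAPA2 encode the A subunit, and GAPB encodes the B subunit with its regulatory tail. The regeneration steps are represented by the aldolases FBA1 (AT2G21330) and FBA2 (AT4G38970), by sedoheptulose bisphosphatase (SBPASE, AT3G55800), by transketolase (TKL1, AT3G60750) and by phosphoribulokinase (PRK, AT1G32060). All 10 are protein-coding nuclear genes, and in TAIR10.1 (RefSeq) RCA lies at chr2:16570746-16573692, FBA1 at chr2:9128122-9130619 and FBA2 at chr4:18163496-18166008. On chromosome 3 lie PGK1 at chr3:4060920-4063306, GAPA at chr3:9794862-9797045, SBPASE at chr3:20709294-20711640 and TKL1 at chr3:22453668-22457458. On chromosome 1 lie GAPA2 at chr1:4392438-4394454, PRK at chr1:11532199-11534639 and GAPB at chr1:16127353-16129895.

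GAPA and GAPA2, and likewise FBA1 and FBA2, are close copies, and a count at 1 of them is only as good as the differences between them. In the RefSeq annotation of TAIR10.1 the coding sequences of GAPA and GAPA2 were 85.8% identical over 1188 aligned bases, and those of FBA1 and FBA2 83.9% identical over 1190. The longest run shared without a difference was 29 bases in the first pair and 35 in the second. The stretch around each of these runs is printed from the TAIR10.1 genome, 5′ to 3′ on the coding strand, with capitals at the 8 positions where the 2 copies of a pair differ. GAPA2 is read from chromosome 1 (coding bases 862 to 950), GAPA from chromosome 3 (727 to 815), FBA1 from chromosome 2 (406 to 500) and FBA2 from chromosome 4 (403 to 497).
GAPA2: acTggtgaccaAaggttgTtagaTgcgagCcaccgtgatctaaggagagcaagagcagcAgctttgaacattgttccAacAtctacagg
GAPA: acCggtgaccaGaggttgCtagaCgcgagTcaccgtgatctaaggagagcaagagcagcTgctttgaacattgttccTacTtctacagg
FBA1: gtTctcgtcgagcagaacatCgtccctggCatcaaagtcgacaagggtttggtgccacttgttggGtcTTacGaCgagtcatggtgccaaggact
FBA2: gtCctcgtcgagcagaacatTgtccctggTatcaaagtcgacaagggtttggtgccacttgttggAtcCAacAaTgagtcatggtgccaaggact
Even in these most alike stretches no identical run was longer than 35 bases. No source used here gives the length of the sequenced reads. PGK1 and TKL1 also have close relatives outside the 10, PGK2 with 87.2% and TKL2 with 85.0% identity of the coding sequence, and their longest shared runs were 41 and 32 bases. GAPA and GAPB were 71.0% identical, with a longest shared run of 17 bases.

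The libraries set limits that touch every value below. Libraries had 22215651 to 24308874 reads and 338784 to 870567 counts at genes, 1.41 to 3.61% of their reads. At 10 °C counts at genes were 3.61, 3.52 and 2.44% of reads in IP-Svi-0, against 2.61, 1.48 and 2.24% in Col-0. Reads assigned to no feature made up 59.65 to 89.78% of a library. The kit keeps the strand, but no source used here says how the counting step treated strand, and a gene's counts can thus include reads of the other strand or be mainly such reads. Whether the counts at the 10 genes are mainly reads of their own transcripts was not tested. In TAIR10.1 an exon on the other strand overlapped exons of RCA by 3 bp, of PGK1 by 25 bp and of PRK by 33 bp, and of none of the other 7. GAPA also shares 13 bp of exon with a gene on its own strand. Genes free of such an overlap held 52.34, 50.12 and 43.33% of the nuclear counts in the IP-Svi-0 libraries at 10 °C, against 44.04, 35.91 and 37.28% in the Col-0 libraries at 10 °C. The part of this share in the results was tested only by a fit with it as a covariate, given beside the calls.

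All 10 genes were abundantly counted, each with a mean above that of at least 96.92% of the genes tested. Levels are given as CPM, counts relative to library size after TMM scaling, and levels of different genes are compared as CPM per kb of exon. Over all 24 libraries RCA had 2260 CPM per kb, FBA2 794.6, GAPB 679.3, PGK1 604.9 and GAPA 486.5. PRK had 461 CPM per kb, FBA1 330, GAPA2 277.4, TKL1 255.2 and SBPASE 252.5. RCA stood far above the other 9, while the neighbouring levels of GAPA and PRK, and of TKL1 and SBPASE, differed by less than their spread over the libraries. Summed over the 10 genes, the level was 18646 ± 1956, 15432 ± 2276, 13858 ± 788.1 and 11337 ± 1081 CPM (SD, n = 3 each) in IP-Svi-0 at 10, 16, 23 and 27 °C. In Col-0 at the same temperatures it was 8488 ± 717, 10675 ± 1461, 12106 ± 601.3 and 10391 ± 1006 CPM. The IP-Svi-0 means fell in order with rising temperature, and the Col-0 means were lowest at 10 °C and highest at 23 °C.

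**Figure D1:**
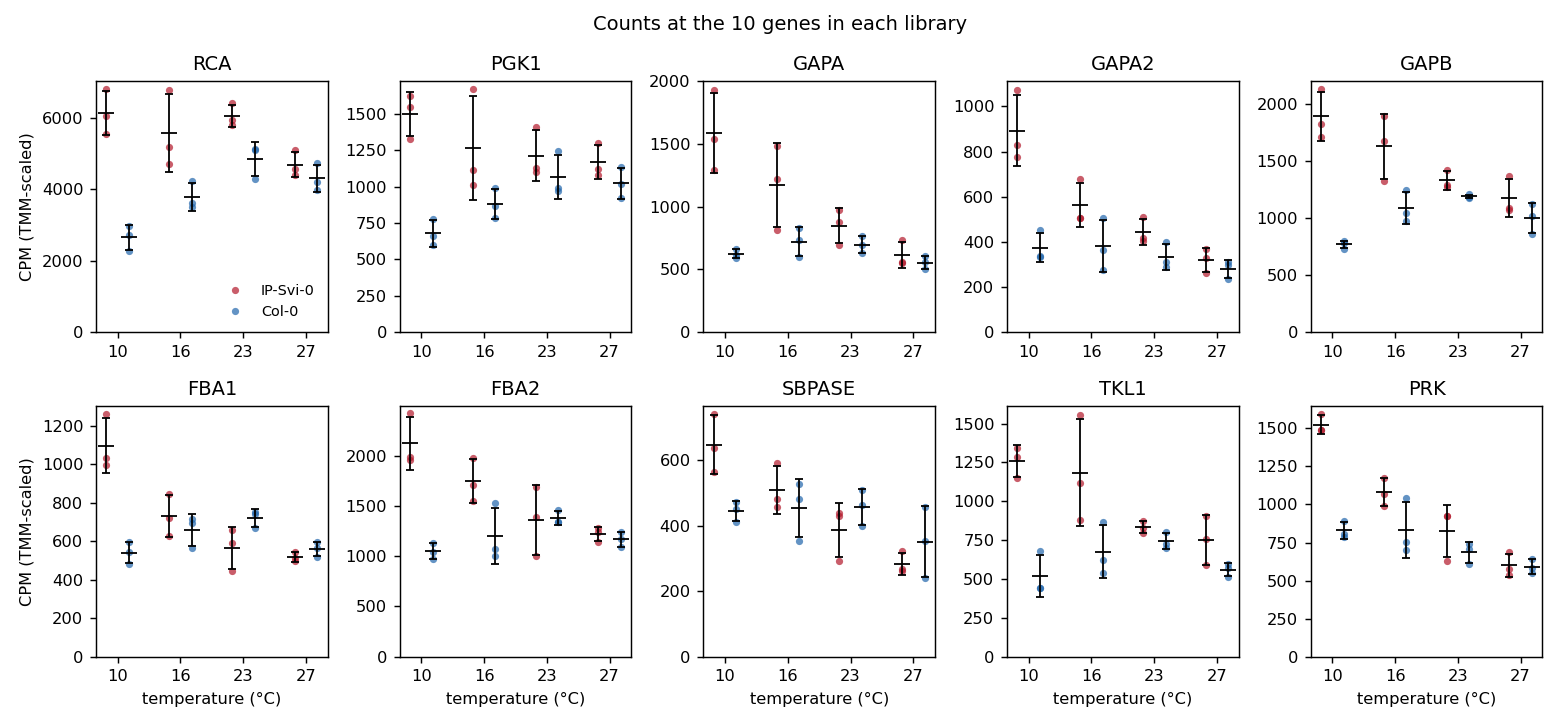
CPM (TMM-scaled, linear axis from 0) of each of the 10 genes against growth temperature, with 1 point for each library, IP-Svi-0 left of Col-0, and bars for the mean ± SD of 3 libraries. At 10 °C the 3 IP-Svi-0 points lie above the 3 Col-0 points in all 10 panels, for RCA at 5553 to 6797 against 2269 to 2963 CPM, while at 27 °C the accessions overlap in every panel.

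At 10 °C, 9 of the 10 genes were higher in IP-Svi-0 than in Col-0, by 1.84- to 2.54-fold, and the remaining one, SBPASE, did not pass the test. Of all genes tested, 9.59% were called higher in IP-Svi-0 at this temperature. The median log2 difference was 1.17 over the 10 genes, against 0.02 over all genes tested. In all 10 genes the 3 IP-Svi-0 libraries lay above the 3 Col-0 libraries, as they did in 20.09% of all genes tested. Calls rest on edgeR's quasi-likelihood test with Benjamini-Hochberg adjustment over all 10097 genes, at an adjusted p under 0.05.

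RCA, the activase, had 5553, 6797 and 6036 CPM in the IP-Svi-0 libraries at 10 °C, against 2963, 2269 and 2728 CPM in the Col-0 libraries. Its lowest IP-Svi-0 library was well above its highest Col-0 library. The log2 difference was 1.21 ± 0.27 (SE, edgeR, adjusted p = 0.00106).

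The genes of the reduction steps showed the same order of libraries. PGK1, whose product uses ATP to phosphorylate 3-phosphoglycerate, had 1328, 1547 and 1621 CPM in IP-Svi-0, against 778, 597.6 and 662.8 CPM in Col-0. GAPA, an A subunit gene of the dehydrogenase that consumes NADPH, had 1290, 1930 and 1541 CPM in IP-Svi-0, against 665.6, 617.8 and 593 CPM in Col-0. Both pairs of groups were separated by a wide gap, and the GAPA values of IP-Svi-0 spread more than those of Col-0. GAPA2, the second A subunit gene, had 830.1, 1071 and 776.3 CPM in IP-Svi-0, against 451, 339.2 and 334.9 CPM in Col-0. GAPB, the B subunit gene, had 1714, 2131 and 1828 CPM in IP-Svi-0, against 794.7, 730.9 and 781.4 CPM in Col-0. The Col-0 libraries of GAPB lay close together, with an SD of 33.67 CPM, and far below every IP-Svi-0 library. The log2 differences were 1.14 ± 0.26 for PGK1 (adjusted p = 0.00129), 1.34 ± 0.26 for GAPA (0.000245), 1.25 ± 0.26 for GAPA2 (0.000511) and 1.3 ± 0.25 for GAPB (0.000196), all by edgeR.

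Among the regeneration genes, 4 of 5 were called. FBA1, an aldolase that joins triose phosphates and also makes sedoheptulose bisphosphate, had 998, 1264 and 1031 CPM in IP-Svi-0, against 543.2, 484.6 and 595.4 CPM in Col-0. FBA2, the more abundant aldolase, had 1958, 2420 and 1982 CPM in IP-Svi-0, against 1046, 973.2 and 1133 CPM in Col-0. Both aldolases were about 2-fold higher, with log2 differences of 1.02 ± 0.24 (adjusted p = 0.00196) and 1.01 ± 0.26 (0.00392). TKL1, which moves carbon pairs between sugar phosphates, had 1283, 1345 and 1149 CPM in IP-Svi-0, against 679, 440.2 and 439.5 CPM in Col-0, with 1 Col-0 library apart from the other two. PRK, which makes ribulose bisphosphate with ATP, had 1491, 1595 and 1489 CPM in IP-Svi-0, against 789.7, 807.6 and 893 CPM in Col-0. TKL1 differed by 1.27 ± 0.27 (adjusted p = 0.000597) and PRK, the smallest of the 9 called differences, by 0.88 ± 0.25 (0.00829).

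SBPASE encodes a bisphosphatase that acts only within the regeneration branch. It had 637.2, 740.1 and 562.8 CPM in IP-Svi-0 at 10 °C, against 449.3, 472.5 and 411.6 CPM in Col-0. The libraries of the 2 accessions did not overlap, but the log2 difference of 0.54 ± 0.26 did not pass the test (edgeR, adjusted p = 0.119).

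The 9 calls at 10 °C were made under each of 8 other settings and with each of the 24 libraries left out in turn. With the non-overlapping share as a covariate the median log2 difference of the 10 genes was 0.91, and 1054 genes of all those tested were called, against 2422 without it. In a fit of nuclear genes with under 50 bp of such overlap, chosen after seeing the data, the median was 1.03.

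**Figure D2:**
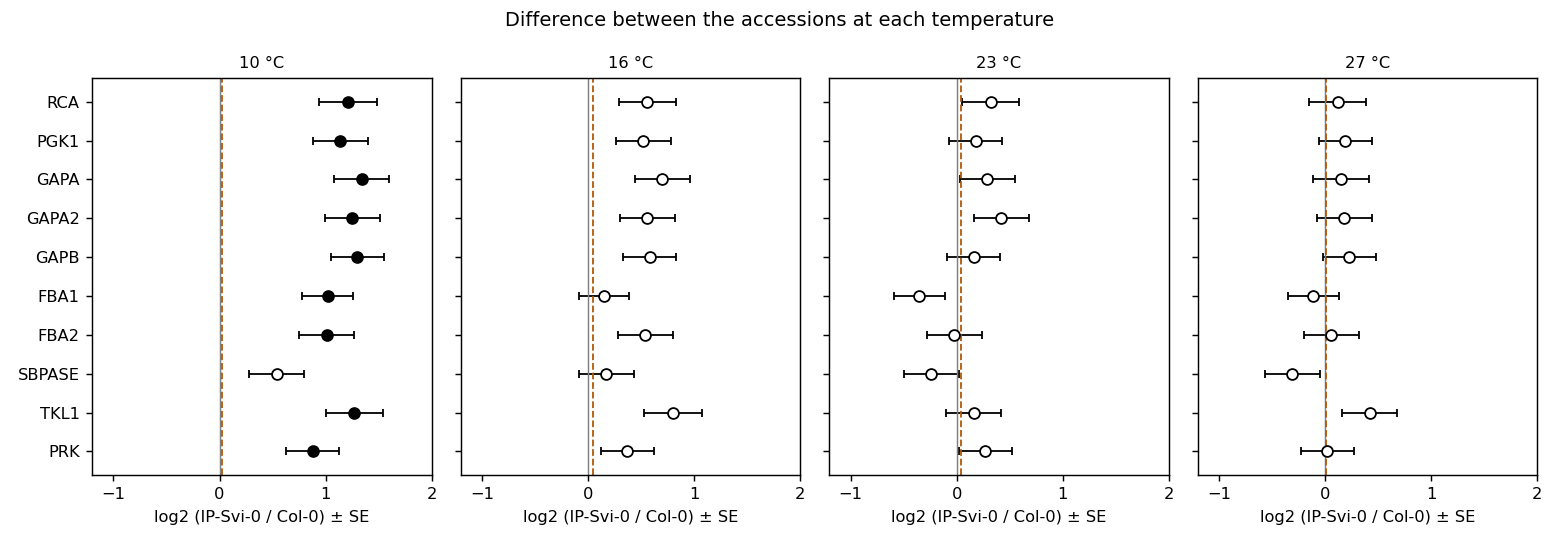
Log2 difference between IP-Svi-0 and Col-0 (x axis, ± SE) for each gene at each temperature, filled where the adjusted p is under 0.05, with the median of all genes tested as a dashed line. At 10 °C 9 of 10 points are filled and all lie right of 0, and at 16, 23 and 27 °C none is filled.

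The difference between the accessions was smaller at the other temperatures, and no gene of the 10 was called at any of them by edgeR. At 16 °C 8.22% of all genes were called but 0 of the 10. An unadjusted p under 0.05 was found in 7 of the 10 and in 2199 of all 10097 genes. DESeq2 called 4 of the 10, and its share over all genes is not given here. The log2 differences ran between 0.15 for FBA1 and 0.80 for TKL1, with a median of 0.55 against 0.05 over all genes. TKL1 had 1556, 878.1 and 1115 CPM in IP-Svi-0 at 16 °C, against 868.1, 620.9 and 541.5 CPM in Col-0, so that the groups came within 10 CPM of each other, and its adjusted p was 0.0548 (edgeR). In 6 of the 10 genes the IP-Svi-0 libraries all lay above the Col-0 libraries, as they did in 10.76% of all genes tested.

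At 23 °C 7.93% and at 27 °C 8.04% of all genes were called, and 0 of the 10 at either temperature. By edgeR 0 of the 10 also had an unadjusted p under 0.05 at 23 °C and 0 at 27 °C, and DESeq2 called 0 at both. The log2 differences ran between -0.35 (FBA1) and 0.42 (GAPA2) at 23 °C, with a median of 0.17, and between -0.31 (SBPASE) and 0.42 (TKL1) at 27 °C, with a median of 0.14. RCA had 5807, 6405 and 5945 CPM in IP-Svi-0 at 23 °C, against 4281, 5098 and 5125 CPM in Col-0. These libraries did not overlap, but the log2 difference was 0.32 ± 0.27 (adjusted p = 0.544). Of the 10 genes at 23 °C, 3 had all IP-Svi-0 libraries above those of Col-0 and 1, FBA1, had them all below, against 13.37 and 13.76% of all genes tested. At 27 °C 0 of the 10 lay all above and 0 all below, against 11.26 and 14.15% of all genes tested.

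Averaged over the 4 temperatures, 8 of the 10 genes were higher in IP-Svi-0, where 16.0% of all genes were called higher. The largest mean differences were those of TKL1 (log2 0.67 ± 0.13, edgeR adjusted p = 0.000144), GAPA (0.62 ± 0.13, 0.000284) and GAPA2 (0.60 ± 0.13, 0.000386). GAPB followed with 0.57, RCA with 0.55, PGK1 with 0.51, FBA2 with 0.40 and PRK with 0.38. FBA1 (0.18 ± 0.12, adjusted p = 0.272) and SBPASE (0.04 ± 0.13, 0.835) were not called. These are also the 2 genes with values below 0 at both 23 and 27 °C.

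Within each accession, the response to growth temperature was tested against the 23 °C libraries, which all comparisons of that accession share. In IP-Svi-0 at 10 against 23 °C, 5 of the 10 genes were higher at 10 °C, where 5.77% of all genes were called higher. GAPA2 had 830.1, 1071 and 776.3 CPM at 10 °C, against 404.9, 508.1 and 419.3 CPM at 23 °C, a log2 change of 1.01 ± 0.26 (edgeR adjusted p = 0.00585). FBA1 had 998, 1264 and 1031 CPM at 10 °C, against 447.4, 590.7 and 661.1 CPM at 23 °C, a log2 change of 0.95 ± 0.24 (adjusted p = 0.00524). Neither gene overlapped between the 2 temperatures. GAPA rose by 0.90 ± 0.26 (adjusted p = 0.0143), PRK by 0.89 ± 0.25 (0.0113) and SBPASE by 0.74 ± 0.26 (0.0422). The SBPASE call was lost with no filter on low counts (adjusted p = 0.0531), with a minimum of 1 CPM (0.0522) and with the covariate (0.0537), while the other 4 calls were kept in these 3 settings and FBA2 was called with the covariate (0.0482). FBA2 at 0.64, TKL1 at 0.60, GAPB at 0.51 and PGK1 at 0.30 did not pass the test, and DESeq2 called GAPB and FBA2 in addition to the 5.

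RCA had the smallest change of the 10 genes in IP-Svi-0. Its libraries held 5553, 6797 and 6036 CPM at 10 °C, against 5807, 6405 and 5945 CPM at 23 °C, a log2 change of 0.02 ± 0.27 (adjusted p = 0.983). The 2 sets of libraries overlapped fully.

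The 5 calls in IP-Svi-0 depended on single libraries. Without the IP-Svi-0 10 °C library 2, which had the highest values of that group for 9 of the 10 genes, only FBA1 was called (log2 0.84, adjusted p = 0.0464). The IP-Svi-0 23 °C library 1 had the lowest RCA, GAPA2, FBA1, FBA2, SBPASE and PRK of its group. Without this library 3 genes were called, GAPA, GAPA2 and FBA1. SBPASE also lost its call without the IP-Svi-0 10 °C library 1 (adjusted p = 0.0746) or the IP-Svi-0 23 °C library 2 (0.0554). Without the IP-Svi-0 23 °C library 3, GAPA lost its call (0.0621) and FBA2 gained one (0.0451).

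In Col-0 at 10 against 23 °C, RCA was the 1 gene called, and it was lower at 10 °C, where 2.85% of all genes were called lower. It had 2963, 2269 and 2728 CPM at 10 °C, against 4281, 5098 and 5125 CPM at 23 °C. No library of 1 temperature came near those of the other, and the log2 change was -0.86 ± 0.27 (edgeR adjusted p = 0.0411). The call was lost with no filter on low counts, with a minimum of 1 CPM (adjusted p = 0.106) and in 15 of the 24 fits that left out a library, among them each of the 6 that left out a Col-0 library of 10 or 23 °C, with adjusted p up to 0.195. PGK1 at -0.65 and GAPB at -0.63 were called by DESeq2 and not by edgeR (adjusted p = 0.134 and 0.135). GAPB had 794.7, 730.9 and 781.4 CPM in Col-0 at 10 °C, against 1177, 1183 and 1208 CPM at 23 °C, so its libraries were far apart too. The median over the 10 genes was 0.69 in IP-Svi-0 (all genes -0.02), against -0.40 in Col-0 (all genes -0.01).

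At 16 against 23 °C and at 27 against 23 °C, 0 of the 10 genes were called in either accession by edgeR or by DESeq2, and 0 had an unadjusted p under 0.05. Of all genes, 0.792% were called in IP-Svi-0, against 1.23% in Col-0, at 16 against 23 °C, and 0.109% in Col-0 at 27 against 23 °C. In IP-Svi-0 at 27 against 23 °C edgeR called 0 genes of all those tested, with 681 at an unadjusted p under 0.05, and DESeq2 called 7. The median log2 change of the 10 genes was 0.36 in IP-Svi-0, against -0.13 in Col-0, at 16 °C, and -0.27 in IP-Svi-0, against -0.24 in Col-0, at 27 °C. At 27 °C every gene was below its 23 °C value in both accessions, between -0.05 and -0.47 in IP-Svi-0 and between -0.06 and -0.41 in Col-0, with none called.

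Whether the 2 accessions responded differently to 10 °C was tested as an interaction, the 10 against 23 °C change in IP-Svi-0 minus that in Col-0. All 10 values were positive, between 0.61 for PRK and 1.37 for FBA1, with a median of 0.99 against 0.03 over all genes. By edgeR, 2 of the 10 were called, where 1.43% of all genes were called higher. FBA1 changed by 0.95 in IP-Svi-0 and by -0.41 in Col-0, a difference of 1.37 ± 0.34 (adjusted p = 0.0202). GAPB changed by 0.51 in IP-Svi-0 and by -0.63 in Col-0, a difference of 1.14 ± 0.35 (adjusted p = 0.0496). Of the other 8, 7 had an unadjusted p under 0.05, as had 2251 of all 10097 genes. DESeq2 called 7 of the 10 in all, and its share over all genes is not given here. FBA1 was called in each of 8 other settings and lost the call in 4 of the 24 fits without a library, with adjusted p of 0.0528 to 0.0825. GAPB was close to the threshold and lost its call with no filter, with a minimum of 1 CPM, with the replicate block, with the covariate and in 15 of the 24 fits without a library.

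The interactions at 16 and at 27 °C called 0 of all genes by edgeR, with 1287 and 377 genes at an unadjusted p under 0.05, and DESeq2 called 4 and 0 genes. None of the 10 had an unadjusted p under 0.05, and their medians were 0.41 and -0.03. Tested with 3 terms together, 0 of the 10 were called against 1.43% of all genes. An unadjusted p under 0.05 was found in 8 of the 10 and in 1675 of all 10097 genes. DESeq2 called 6 of the 10, and its share over all genes is not given here. FBA1 came closest (edgeR adjusted p = 0.0693).

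**Figure D3:**
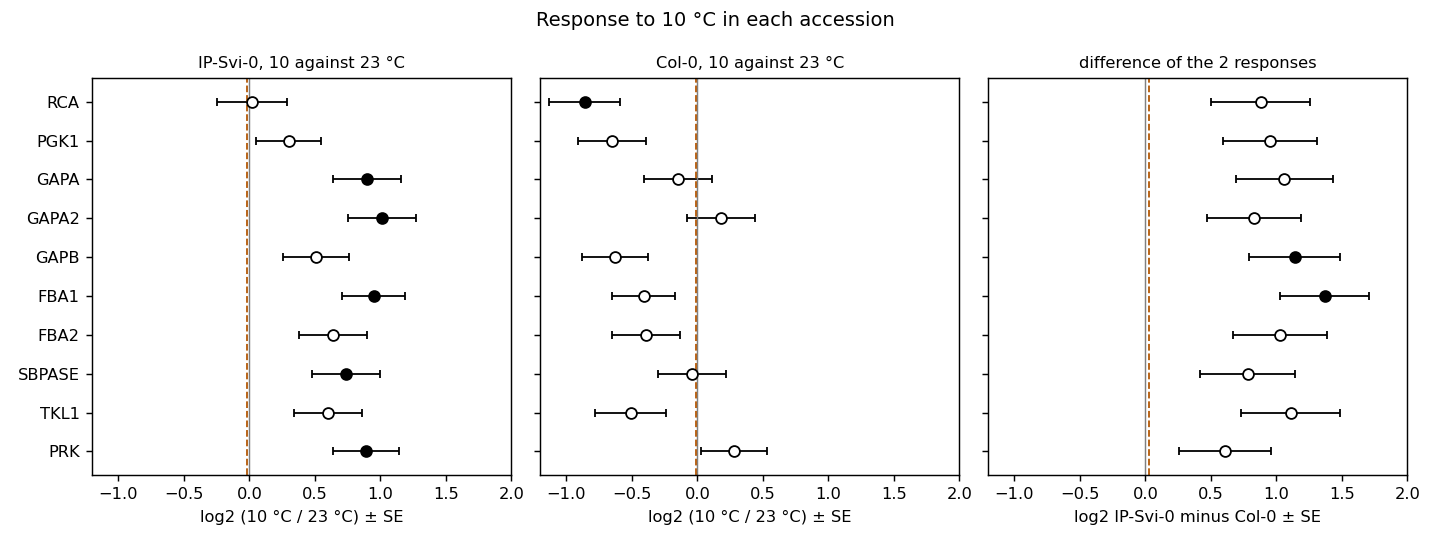
Log2 change at 10 against 23 °C (x axis, ± SE) of each gene in IP-Svi-0, in Col-0 and as the difference of the 2 responses, filled where the adjusted p is under 0.05, with the median of all genes tested as a dashed line. The IP-Svi-0 points lie between 0.02 and 1.01, the Col-0 points between -0.86 and 0.28, and FBA1 and GAPB are filled in the panel of differences.

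The proportions within a library are free of scaling between libraries. RCA made up 32.88 ± 0.55, 35.9 ± 2.42, 43.69 ± 0.94 and 41.37 ± 0.76% of the counts at the 10 genes in IP-Svi-0 at 10, 16, 23 and 27 °C (SD, n = 3 each). In Col-0 it made up 31.17 ± 1.60, 35.53 ± 1.16, 39.87 ± 2.12 and 41.41 ± 0.79%. The RCA share was thus lowest at 10 °C in both accessions, in IP-Svi-0 where RCA itself was level and in Col-0 where it was lower. The A subunit genes GAPA and GAPA2 together, relative to GAPB per kb, had a ratio of 1.422, 1.152, 1.054 and 0.8652 in IP-Svi-0 at the 4 temperatures, and of 1.419, 1.099, 0.9401 and 0.911 in Col-0. The ratio was highest at 10 °C in both accessions, and there the accessions differed by less than 1 SD. PRK relative to RCA per kb followed the same course, with 0.2779, 0.2188, 0.151 and 0.142 in IP-Svi-0 and 0.3519, 0.243, 0.1578 and 0.1531 in Col-0. SBPASE relative to TKL1 per kb, by contrast, differed with the accession, at 0.9373, 0.8345, 0.8553 and 0.7038 in IP-Svi-0 and 1.629, 1.256, 1.119 and 1.132 in Col-0. These ratios were formed after the data were seen and were not tested.

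**Figure D4:**
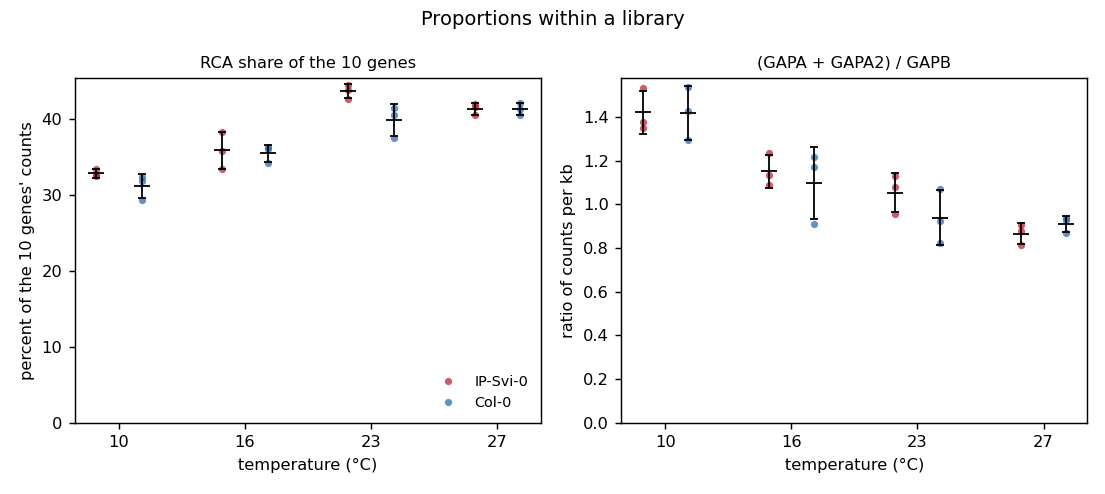
RCA counts as a percent of the counts at the 10 genes (left) and the ratio of GAPA plus GAPA2 to GAPB counts per kb (right), against temperature, with 1 point for each library and bars for the mean ± SD, IP-Svi-0 left of Col-0. The RCA share is 29.35 to 33.51% in the 6 libraries at 10 °C and at least 37.48% in the 6 libraries at 23 °C, and the subunit ratio is highest at 10 °C in both accessions.

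The balance between the 2 copies of a pair was tested as the share of 1 copy in the counts of both. FBA1 took 34.09 ± 0.29, 29.48 ± 0.57, 29.62 ± 1.41 and 29.85 ± 2.34% of the aldolase pair in IP-Svi-0 at 10, 16, 23 and 27 °C, against 33.96 ± 0.64, 35.73 ± 3.64, 34.38 ± 1.43 and 32.43 ± 0.09% in Col-0 (SD, n = 3 each). At 10 °C the accessions overlapped, with 33.76, 34.31 and 34.21% in IP-Svi-0 and 34.18, 33.24 and 34.45% in Col-0. At 16 and 23 °C every IP-Svi-0 library was below every Col-0 library, and at 27 °C 2 of 3 were. Over the 4 temperatures the share was lower in IP-Svi-0, at 30.76% against 34.12%, a difference of -3.36 points (exact two-sided permutation test of accession within temperature, p = 0.000612, adjusted over 2 tests p = 0.00122). Leaving out single libraries gave differences of -3.84 to -2.93 points. Reads of both accessions were aligned to the TAIR10 genome, which is that of Col-0, and how well reads of IP-Svi-0 were placed at each copy was not tested.

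GAPA2 took 36.12 ± 2.85, 33.14 ± 6.74, 34.51 ± 3.06 and 34.17 ± 2.51% of the A subunit pair in IP-Svi-0 at 10, 16, 23 and 27 °C, against 37.31 ± 2.69, 34.11 ± 3.24, 32.2 ± 1.79 and 33.58 ± 2.16% in Col-0. The accessions overlapped at every temperature, and the means of 34.49 and 34.3% differed by 0.188 points (exact permutation test, p = 0.892). The spread in IP-Svi-0 at 16 °C came from 1 library at 25.5%, beside 38.23 and 35.7%.

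**Figure D5:**
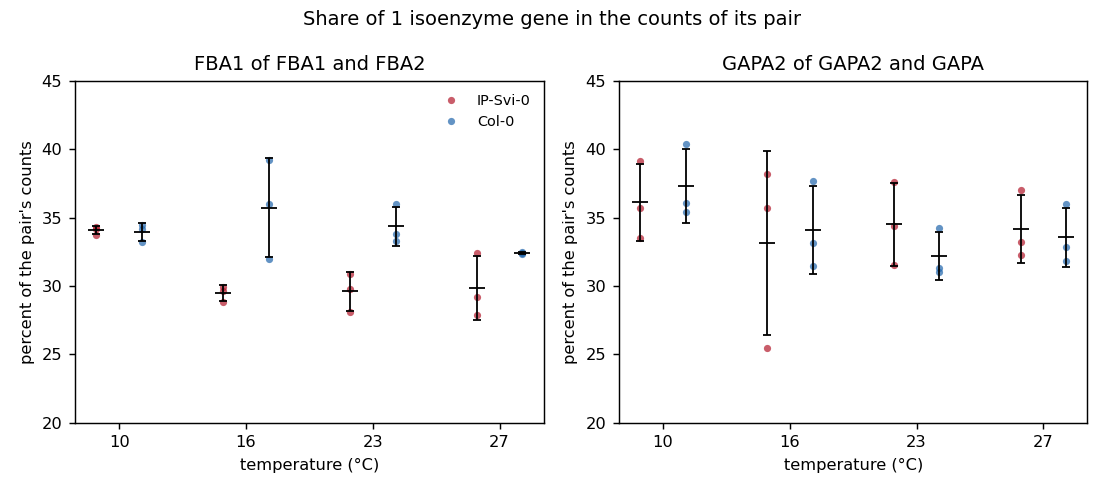
Share of FBA1 in the counts of FBA1 and FBA2 (left) and of GAPA2 in those of GAPA2 and GAPA (right), in percent on an axis that starts at 20, against temperature, with 1 point for each library and bars for the mean ± SD, IP-Svi-0 left of Col-0. The FBA1 share is about 34% in both accessions at 10 °C and lower in IP-Svi-0 at 16 and 23 °C, and the GAPA2 share overlaps at every temperature.

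The 10 genes varied together over the libraries, which share depth and scaling. Pearson's r of log2 CPM over the 24 libraries ran between 0.12 (PGK1 and SBPASE) and 0.93, with a median of 0.75 over the 45 pairs. For deviations from the group means it ran between -0.44 and 0.84, with a median of 0.54, so a library that was high for 1 gene of its group was mostly high for others. The mean deviation of the 10 genes was largest in the Col-0 16 °C library 1, at 0.25 on the log2 scale, and lowest in the IP-Svi-0 16 °C library 2, at -0.20. In their groups the share of counts at genes without an overlap was also highest in the first, at 46.81%, and lowest in the second, at 45.74%. Among the other groups the library with the highest share had the highest deviation in some and the lowest in others. It was lowest in the IP-Svi-0 10 °C library 1 (52.34%, -0.11) and the Col-0 23 °C library 1 (47.72%, -0.06). The part of the share in these deviations was not tested. Outside the 10 genes and the lists below, the 5 nuclear genes whose 8 group means were most alike to the mean of the 10 were EMB3126 (r = 0.988), COG0212 (0.985), VAR1 (0.983), AT1G76110 (0.981) and SEP1 (AT4G34190, 0.977). Over the 24 libraries their r was 0.789, 0.673, 0.895, 0.712 and 0.889. These 5 genes were picked for the highest r over the 8 means, so that r is only a description. EMB3126 and VAR1 overlap genes of the other strand by 168 and 93 bp of exon, so their counts may belong to those genes.

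Promoter sequence is printed for FBA1 and GAPB, the 2 genes called by edgeR in the interaction at 10 °C, calls that were lost in some fits. It is also printed for the 3 genes that held a searched motif, RCA, TKL1 and PRK. Each is the 250 bases before the annotated start of the gene in TAIR10.1 (RefSeq), 5′ to 3′ on the strand of the gene, with the motif in capitals. These are sequences of Col-0, and those of IP-Svi-0 were not examined. FBA1 lies at chr2:9130620-9130869 on the minus strand, GAPB at chr1:16127103-16127352 on the plus strand, RCA at chr2:16573693-16573942 on the minus strand, TKL1 at chr3:22453418-22453667 on the plus strand and PRK at chr1:11531949-11532198 on the plus strand.
FBA1: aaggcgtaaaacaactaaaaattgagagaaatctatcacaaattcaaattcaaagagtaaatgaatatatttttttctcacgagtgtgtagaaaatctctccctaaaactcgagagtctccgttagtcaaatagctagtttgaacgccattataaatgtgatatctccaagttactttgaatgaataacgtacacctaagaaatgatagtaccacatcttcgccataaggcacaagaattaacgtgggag
GAPB: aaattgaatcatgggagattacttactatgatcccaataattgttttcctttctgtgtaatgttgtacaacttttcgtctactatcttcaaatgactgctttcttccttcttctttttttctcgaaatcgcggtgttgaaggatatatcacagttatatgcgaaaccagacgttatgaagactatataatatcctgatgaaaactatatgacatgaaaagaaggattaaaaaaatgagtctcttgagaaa
RCA: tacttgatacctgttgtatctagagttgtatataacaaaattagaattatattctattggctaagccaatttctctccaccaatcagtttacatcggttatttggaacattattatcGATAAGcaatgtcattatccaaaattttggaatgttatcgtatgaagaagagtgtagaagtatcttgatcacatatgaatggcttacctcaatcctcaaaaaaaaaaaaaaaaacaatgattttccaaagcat
TKL1: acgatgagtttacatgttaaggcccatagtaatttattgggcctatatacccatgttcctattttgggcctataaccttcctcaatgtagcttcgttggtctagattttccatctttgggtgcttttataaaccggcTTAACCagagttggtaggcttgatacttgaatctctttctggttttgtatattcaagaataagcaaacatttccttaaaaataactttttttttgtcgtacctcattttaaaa
PRK: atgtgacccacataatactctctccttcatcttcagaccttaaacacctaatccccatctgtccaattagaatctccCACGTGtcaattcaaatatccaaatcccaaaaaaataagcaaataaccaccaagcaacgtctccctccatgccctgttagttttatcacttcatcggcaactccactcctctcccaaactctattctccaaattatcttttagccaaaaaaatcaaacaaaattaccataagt
Searched on both strands were the G-box CACGTG, the I-box core GATAAG, the GT1 core GGTTAA, the CCA1 site AAAAATCT and the evening element AAAATATCT. RCA held the I-box core 133 bases before its start, TKL1 the GT1 core on the other strand at 113 bases, and PRK the G-box at 173 bases. The windows of the other 7 genes held none of these letters. Of 27443 windows of the same length before nuclear genes, 6.5% held the G-box, 12.3% the I-box core, 14.6% the GT1 core, 6.7% the CCA1 site and 2.4% the evening element.

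Neighbouring steps of carbon fixation were followed through lists that were chosen with results of these data known. Of 5 Rubisco subunit genes, 4 were higher in IP-Svi-0 at 10 °C, by log2 1.87 ± 0.27 for RBCS2B and 1.84 ± 0.30 for RBCS1A (edgeR, adjusted p = 2.37e-06 and 1.35e-05). RBCS1B, RBCS2B and RBCS3B are near-identical copies whose counts can be split between them. The chloroplast gene of the large subunit, RBCL, had a value of -0.88 and was not called. Of 7 genes for Rubisco assembly and regulation, 4 were higher and 1 was lower. CBBY, a phosphatase that degrades a Rubisco inhibitor, was higher in IP-Svi-0 by 1.60 ± 0.28, and RAF2, an assembly factor, by 1.73 ± 0.35. RBCX1, a chaperone of the large subunit, was lower, at -2.73 ± 0.31. RAF2 and RBCX1 overlap genes of the other strand by 577 and 141 bp of exon, so their counts may belong to those genes.

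Of 8 tested genes for other Calvin cycle enzymes, 6 were higher in IP-Svi-0 at 10 °C and none was lower, with a median log2 of 1.23. PGK2, the close relative of PGK1, was higher in IP-Svi-0 by 1.52 ± 0.28. RPI2, a ribose phosphate isomerase, was higher in IP-Svi-0 by 1.71 ± 0.37, and it overlaps genes of the other strand by 1051 bp. Whether the RPI2 product acts in the chloroplast was not examined, so its value may not concern the cycle. Of 9 tested genes for CP12 and thioredoxin regulation, 6 were higher, with TRXM1 at 1.14 ± 0.28 and TRXF2 at 1.0 ± 0.37, the second called by edgeR (adjusted p = 0.0447) and not by DESeq2 (0.07). CP12-2, whose protein binds GAPDH and PRK in the dark, was not called at 0.13 ± 0.26, and over the mean of 4 temperatures it was lower, at -0.46 ± 0.13 (adjusted p = 0.00585) while CP12-1 was higher by 0.51 ± 0.12. CP12-1 and CP12-2 thus differed between the accessions in opposite directions.

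Photorespiration salvages the product of oxygenation by Rubisco. Of its 11 tested genes 10 were higher in IP-Svi-0 at 10 °C, led by HPR1 (1.56 ± 0.30), the peroxisomal hydroxypyruvate reductase, and SHM1 (1.39 ± 0.28), the mitochondrial serine hydroxymethyltransferase. Of 10 tested genes for counterparts of the same enzymes outside the cycle, 3 were higher, among them CYFBP (1.66 ± 0.29), the cytosolic fructose bisphosphatase. GAPCP1 (1.57 ± 0.30), a plastid glycolytic dehydrogenase, overlaps the other strand by 317 bp. The medians were 0.84 for photorespiration and 0.56 for the counterparts outside the cycle, beside 1.17 for the 10 genes. Differences between these medians were not tested.

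In IP-Svi-0 at 10 against 23 °C, 3 of the 8 tested genes for other Calvin cycle enzymes were higher, HCEF1 by 1.22 ± 0.28 and RPE by 0.98 ± 0.24 among them. HCEF1, which overlaps a gene of the other strand by 156 bp of exon, is the chloroplast fructose bisphosphatase, and RPE the pentose phosphate epimerase of the cycle. The 11 photorespiration genes had a median of 0.21, and the lowest edgeR adjusted p among them was 0.0925, for GOX2. In Col-0, RBCS2B and RBCS3B were lower at 10 than at 23 °C, at -1.60 ± 0.27 and -1.57 ± 0.30, as were CBBY (-1.43 ± 0.29), RPI2 (-1.55 ± 0.38) and PGK2 (-0.89 ± 0.28). PGK2 (edgeR adjusted p = 0.0413) lost its call in 8 of the 24 fits without a library (adjusted p up to 0.18), with no filter and with the covariate, and RPI2 lost it without the Col-0 10 °C library 3 (0.0524). No gene of the Rubisco, Calvin cycle, CP12 and photorespiration lists was called higher in Col-0 at 10 than at 23 °C. The 5 Rubisco subunit genes did not move alike in that comparison, with values of -1.60 to 1.88. The highest value was that of the chloroplast gene RBCL and was not called. The interactions of the 5 at 10 against 23 °C ran between -2.14 for RBCL and 1.65 for RBCS1A.

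Markers of the seedling parts were read in the same libraries. The 4 shoot markers, genes of the light-harvesting antenna and photosystem I, summed to 13388 ± 3216 CPM in IP-Svi-0 at 10 °C, against 9685 ± 2314 CPM in Col-0, and to 2043 to 3039 CPM in the other IP-Svi-0 groups and 2268 to 2920 CPM in the other Col-0 groups. At 10 °C 1 of the 4, LHCB4.1, was called between the accessions (1.19 ± 0.26), and the markers rose at 10 against 23 °C in both accessions, 4 of 4 in IP-Svi-0 and 2 of 4 in Col-0. The 5 root markers summed to 58.95 CPM in IP-Svi-0 at 10 °C and 21.3 CPM in Col-0, with 1 of them at 0 in Col-0, and the 1 that could be tested, PRP3, was higher in IP-Svi-0 (1.70 ± 0.42). The 5 seed storage markers summed to 62.41 CPM in IP-Svi-0 at 10 °C, against 115.5 CPM in Col-0, and the 3 tested had log2 differences of -1.55 to -0.55 that did not pass the test. The senescence marker SAG12 had 0 counts in all 24 libraries, and the flower markers AP3 and PI had 3 and 1. SAG13, the other senescence marker, had at most 3 counts in any group and was not tested. These markers move with temperature and in part with accession, and their part in the results on the 10 genes was not tested.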

How the data were processed

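Raw read counts per gene, as the authors deposited them, were used for 24 RNA-seq libraries of whole seedlings, 3 for each of 8 groups, from a table of 33602 genes and 5 lines for unassigned reads. Per the labels the libraries were made with a strand-specific mRNA kit. Per the submitters' processing notes FastQC, HISAT2, HTSeq, Cufflinks and Cuffdiff were used with TAIR10, while versions, parameters and strand setting are not given in the sources used here. Of a library, unassigned reads made up 96.39 to 98.59% and were left out of library sizes and tests. Raw counts at genes were 338784 to 870567 per library.

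Counts were scaled by TMM, filtered with filterByExpr (8 groups, minimum count 10), and fitted with edgeR 4.0.16 (R 4.3.3, limma 3.58.1) with 1 mean per group over all 24 libraries. The common biological coefficient of variation was 0.225. A gene was called at an adjusted p under 0.05 (Benjamini-Hochberg). Standard errors were the log2 change over the root of F. Differences of pair shares were tested by exact permutation of the accession labels within temperature (160000 arrangements). Replicate numbers were not treated as pairs.

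The 10 genes, the 11 lists (73 genes) and the tests were chosen with earlier results of these data known. The text names all 10 genes, up to 2 called genes of each list in each direction with the largest change, and the 5 genes whose 8 group means were most alike. RBCL, RBCS1B, CP12-2 in the comparison at 10 °C, GOX2, TKL2, SAG12, SAG13, AP3 and PI were named after their values were seen. Positions, overlaps, coding sequences and promoters were read from the RefSeq genome and annotation of TAIR10.1, in which 32835 gene identifiers matched. The fits were tested on simulated data. Alternatives were DESeq2 1.42.0, its size factors, no filter, a minimum of 1 CPM in 3 libraries, the replicate block, the groups of a comparison alone, a covariate (the share of nuclear counts at genes with no overlapping exon on the other strand), and each library left out. A fit of genes with under 50 bp of overlap was chosen after the data were seen.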

Additional observations from a re-analysis of the deposited data

Results flagged for a closer look

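In all, 10 genes were called in the interaction at 10 against 23 °C (edgeR, Benjamini-Hochberg adjusted p under 0.05). They were 2 of the 10 Calvin cycle genes and, for the rest, genes of the lists of 73. Of all 10097 genes tested 550 were called, with 144 (1.43%) of those tested called higher. Among the 10 Calvin cycle genes these were FBA1, with a log2 difference of 1.37, and GAPB, with 1.14. Among the neighbouring lists they were RBCS1A (1.65), RBCS2B (1.27), RAF2 (1.73), CBBY (1.43), GLDP2 (1.19), GOX1 (1.09), FBA8 (1.51) and LHCB4.1 (1.46). RBCS1A and RBCS2B encode small subunits of Rubisco, RAF2 and CBBY act on its assembly and upkeep, GLDP2 and GOX1 belong to photorespiration, FBA8 is a cytosolic aldolase and LHCB4.1 is an antenna protein. All 10 differences were positive. RBCS2B has near-identical copies, as GOX1 has in GOX2, and RAF2 overlaps genes of the other strand by 577 bp of exon. These calls were lost in some of the 24 fits without a library, GOX1 in 17, GAPB in 15, RBCS2B in 13, GLDP2 in 11, RAF2 and FBA8 in 7 each, CBBY and LHCB4.1 in 5 each, and FBA1 and RBCS1A in 4 each. With the covariate GAPB, RAF2, CBBY, GLDP2, GOX1, FBA8 and LHCB4.1 were not called.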

How the results depend on the processing

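In 8 alternatives and 24 fits without a library, 9 of the 10 genes were called at 10 °C, and in 7 alternatives and those 24 fits 8 were called in the mean of 4 temperatures. At 16 °C 0 became 1 with a minimum of 1 CPM, 1 with genes under 50 bp of overlap and 4 with DESeq2, and 0 to 2 without a library (2 without IP-Svi-0 16 °C library 2). At 23 °C 0 became 1 with the covariate. In IP-Svi-0 at 10 against 23 °C the fits without a library gave 1 to 5, no filter 4, a minimum of 1 CPM 4 and DESeq2 7, and the covariate 5, with SBPASE lost and FBA2 gained. In Col-0 the fits without a library gave 0 to 1. In Col-0 the call was lost with no filter (0) and a minimum of 1 CPM (0), and DESeq2 made 3. The interaction at 10 °C had 2 calls, 1 with no filter, 1 with a minimum of 1 CPM, 1 with the replicate block, 1 with the covariate, 5 in a fit of its 4 groups and 7 with DESeq2. It had 0 to 4 without a library, and 0 without Col-0 10 °C library 2, Col-0 23 °C library 2, IP-Svi-0 10 °C library 2 or IP-Svi-0 23 °C library 1. The 3 terms together gave 1 with the covariate, 6 with DESeq2 and 0 to 1 without a library. The cause of these moves was not tested. Over all genes, the covariate gave 1054 calls at 10 °C and 34 in the interaction at 10 °C, and genes under 50 bp 1341 and 202, against 2422 and 550. A minimum of 1 CPM moved the median of all genes to 0.20 and 0.24 in the interactions at 10 and 16 °C, and no filter to 0.11 and 0.15.

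Signs turned for values that were not called. SBPASE in the mean was -0.06 with the covariate, -0.02 under 50 bp and -0.02 to 0.09 without a library. RCA in IP-Svi-0 at 10 against 23 °C was -0.08 with the covariate, -0.05 under 50 bp and -0.06 to 0.12 without a library. In Col-0 GAPA was 0.07 with the covariate, and SBPASE 0.12 with it, 0.05 under 50 bp and -0.12 to 0.06 without a library. The GAPA2 share difference was -0.763 points from summed counts and -0.448 to 1.14 without a library, with 1.14 without IP-Svi-0 16 °C library 1. For single genes of the 10, 1507 of 1590 values kept direction and side of the threshold, 52 lost it, 20 passed it and 11 turned.

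Samples with the same replicate number showed little common deviation when all groups were pooled. The correlation of their deviations had a median of 0.03 (-0.34 to 0.29), against -0.01 for other numbers. A pooled median cannot show a batch shared by only some of the groups. With the replicate block GAPB lost its call in the interaction at 10 °C, and the number of the 10 genes called in every other comparison was as without it.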

Other observations

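Beside the 5 Calvin cycle genes that rose in IP-Svi-0 at 10 against 23 °C, 5 of the 10 tested counterparts outside the cycle were called. All 5 were higher, where 5.77% of all genes were called higher. FBA8, a cytosolic aldolase, changed by 1.25 ± 0.31 and GAPC1, a cytosolic dehydrogenase, by 1.23 ± 0.27 on the log2 scale (SE, edgeR, adjusted p = 0.00419 and 0.00151). In Col-0 FBA8 changed by -0.26 ± 0.30 and GAPC1 by 0.30 ± 0.27 (adjusted p = 0.692 and 0.581).

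At 27 °C the 5 seed storage markers summed to 833.3 ± 226.8 CPM in IP-Svi-0, while Col-0 had 45.68 ± 34.41 CPM (SD, n = 3 each). Their sum varied widely between the Col-0 libraries at 23 °C, from 39.86 to 731 CPM. By edgeR 3 of the 3 tested were higher in IP-Svi-0 at 27 °C, where 8.04% of all genes were called in either direction. At 10 against 23 °C in IP-Svi-0 the same 3 were lower.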
